A study of Rattus norvegicus with 24 samples.

Results

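Slc6a6 and Slc6a8 encode the plasma membrane carriers of taurine and of creatine. They were followed in cortical microvessels of rats with acute liver failure. All probes whose single gene symbol in the platform annotation is Slc6a6 or Slc6a8 were taken, which gave 2 genes with 4 of 31099 probes, 2 for each gene. Each of 24 samples was hybridised to 1 array, with 8 arrays in each of 3 surgery groups. In both models of liver failure a portocaval anastomosis, a shunt of portal blood around the liver, had been made 24 hours before a second operation. That operation was a total hepatectomy in HEP rats and ligation of the hepatic artery in HAL rats, while Sham rats went through the 2 steps without either procedure. The rats were killed 8 to 12 hours after the last step. The labels give no strain, age or sex, and do not state that the arrays came from different animals, so the p-values reflect only how much arrays vary. Precision is limited by their number.

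Both proteins belong to the SLC6 family, whose members move their substrate into the cell together with sodium and chloride. Taurine is an organic osmolyte that cells take up or release when their volume changes, and creatine in its phosphorylated form buffers ATP. At the blood-brain barrier the endothelium carries both substrates from blood towards the brain, and swelling of astrocytes and brain oedema are known complications of acute liver failure. The comparisons ask how the mRNA of these carriers in the vessels differs between each model and Sham, and between the models.

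Of each log2 signal, the values as provided keep only what follows the decimal point. A signal of 10 or above on the log2 scale was taken to have 8 decimals and a lower one 9, so the number of digits tells on which side of 10 a probe lies, but the integer part is unknown. A reading is such a decimal, between 0 and 1 log2 unit. No level and no fold change can be given for either gene, and a change of more than 0.5 log2 units would be read as a smaller change of the opposite sign. Cells with fewer digits had lost leading or trailing zeros and were not read.

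Of the 4 probes, 3 had no cell of 9 digits, as signals of 10 or above on all 24 arrays give. These were both Slc6a6 probes, 1368778_at and 1374531_at, and the Slc6a8 probe 1386934_at. The other Slc6a8 probe, 1367810_at, had 9 digits on 21 of 24 arrays and lay below 10. The probes of 1 gene can differ in affinity, so this gap between the Slc6a8 probes is no statement about transcripts. Signals of 10 or above throughout were read for only 1933 of the 31099 probes. Endothelial markers with a probe at that level were 11 of 12, astrocyte markers 6 of 9, pericyte markers 4 of 10, smooth muscle markers 3 of 6, oligodendrocyte markers 1 of 5 and blood markers 1 of 5. None of 10 neuron markers and none of 6 microglia markers had one. In such bulk samples fewer cells of a type and less RNA per cell cannot be told apart.

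Among the genes that make, carry or use the same substrates, few had probes at that level. The lists held 9 genes of taurine supply, 10 of the creatine system, 16 of osmolytes and tonicity, 5 of the volume-regulated anion channel, 17 other SLC6 carriers and 10 of the sodium gradient. Genes with a probe that stayed at 10 or above were 0 of 9 with a probe for taurine supply and 1 of 8 for the creatine system, which was Gatm. They were 5 of 15 for osmolytes and tonicity, 2 of 5 for the anion channel, 1 of 12 for the other SLC6 carriers and 4 of 7 for the sodium gradient. Slc6a6 and Slc6a8 thus shared this level with Slc6a17 alone among the 12 other measured carriers of their family, as far as the probes go.

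The decimals of the Slc6a6 probe 1368778_at were spread over most of the unit in every group. In HEP they ran from 0.18 to 0.95 with a median of 0.56 on the 7 arrays read. In HAL the 5 arrays read had 0.91, 0.39, 0.30, 0.87 and 0.19. In Sham the 5 arrays read had 0.69, 0.48, 0.67, 0.13 and 0.91. The 3 groups overlapped over nearly their whole range.

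The second Slc6a6 probe, 1374531_at, differed from the first in how many HAL arrays could be read. Its HEP decimals ran from 0.29 to 0.86 with a median of 0.60 on 6 arrays. Only 2 HAL arrays were read, with 0.18 and 0.34, and the 5 Sham arrays read had 0.38, 0.56, 0.35, 0.27 and 0.55. Of the HAL values 1 lay below the Sham range and the other inside it, and the HEP values lay above the Sham range on 3 of 6 arrays and inside it on the other 3. The other 6 HAL cells were short, against 2 of 8 cells in HEP and 3 of 8 in Sham. Only 5 of the 1933 probes at this level, or 0.259%, had 6 or more short HAL cells. The difference in the number of short cells did not pass in Fisher's exact test, two-sided, with p = 0.315 for HAL against Sham and p = 0.132 for HEP against HAL.

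A cell that lost 1 zero stands for 1 of 2 values, depending on which zero was lost. One that lost 2 zeros stands for 1 of 3 values, since it can also have lost 1 at each end. HAL arrays 1 and 2 of 1374531_at had 6 digits and are of this kind, and their value with 1 zero lost at each end is not listed here. If leading zeros were lost, the 6 short HAL cells of 1374531_at read 0.0029, 0.0019, 0.013, 0.072, 0.063 and 0.070. All 8 HAL arrays then lay between 0.0019 and 0.34. If trailing zeros were lost, the same cells read 0.29, 0.19, 0.13, 0.72, 0.63 and 0.70, and the HAL arrays lay between 0.13 and 0.72. The files do not settle which of the readings holds. With lost leading zeros every short cell reads at the low end of the unit, so a group with more short cells is drawn there. Over the 3 probes at 10 or above, 4 of 24 cells were short in HEP (16.7%), 12 of 24 in HAL (50%) and 6 of 24 in Sham (25%), against 17.7%, 18.8% and 19.2% of the cells of all 1933 probes in the same groups.

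For Slc6a8, the probe 1386934_at had decimals from 0.36 to 0.84 in HEP, with a median of 0.63 on 7 arrays. The 5 HAL arrays read had 0.97, 1.00, 0.13, 0.58 and 0.37. In Sham the decimals of the 8 arrays ran from 0.35 to 0.91 with a median of 0.62. HEP and Sham thus covered nearly the same stretch of the unit, and 3 of the 5 HAL arrays lay outside the Sham range, around the point where the decimals start again from 0. The HAL value of 0.13 was read as 1.13, since the widest gap between the arrays of this probe, which sets where the circle of decimals is opened, lay below the Sham values.

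The probe 1367810_at of Slc6a8, which lay below 10, had decimals between 0.15 and 0.47 on most arrays of each group. Its readings ran from -0.15 to 0.46 in HEP with a median of 0.21 on 6 arrays, where a negative reading is a decimal close to 1 set below 0. In HAL they ran from -0.046 to 0.37 with a median of 0.29 on 7 arrays, and in Sham from -0.23 to 0.47 with a median of 0.20 on 8 arrays. The 3 groups overlapped throughout.

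**Figure D1:**
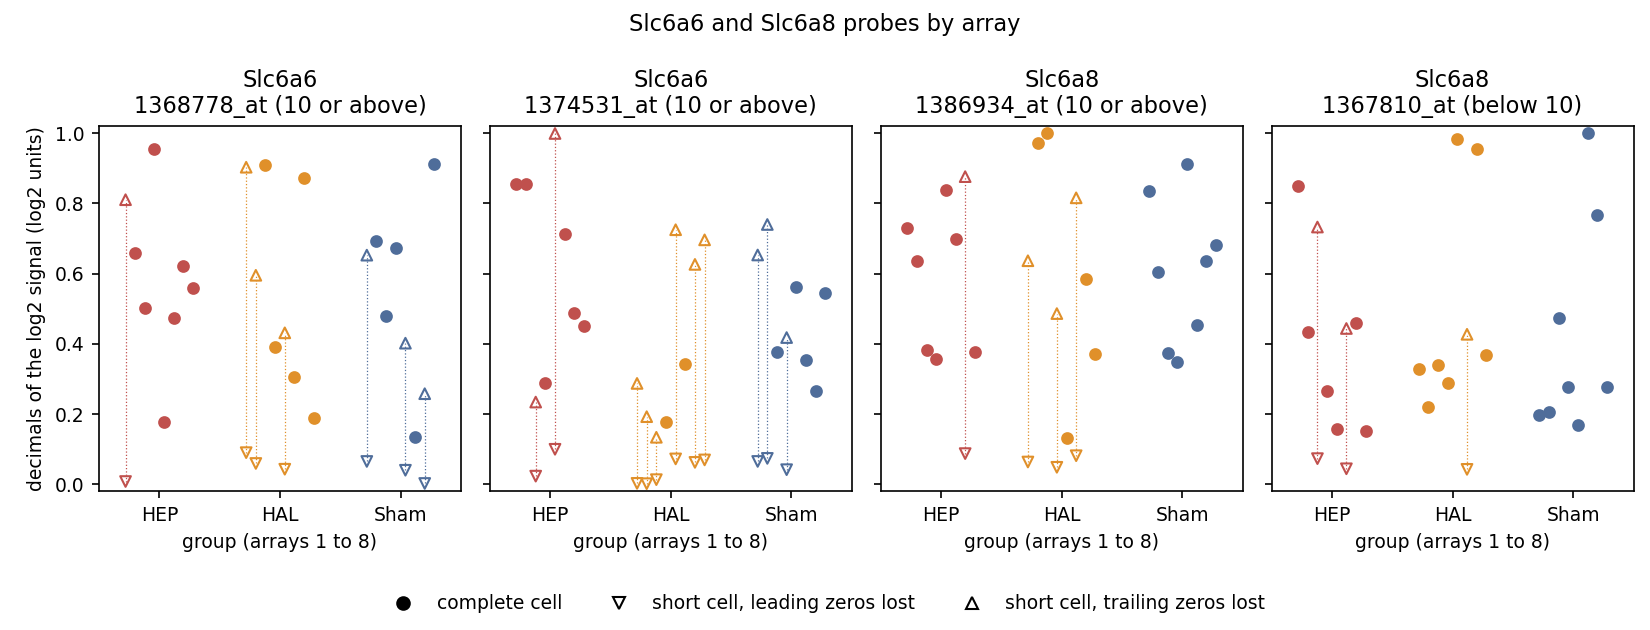
Decimals of the log2 signal (vertical axis, log2 units, where 0 and 1 are the same point) of the 4 probes on each array, with groups HEP, HAL and Sham on the horizontal axis and arrays 1 to 8 from left to right in each. Filled points are complete cells, and a short cell is drawn at its reading with lost leading zeros (triangle down) joined to that with lost trailing zeros (triangle up). In HAL 6 of 8 cells of 1374531_at are short, and the filled HAL points of 1386934_at lie at 0.97, 1.00, 0.13, 0.58 and 0.37.

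How tightly the arrays of a probe agree was measured by the resultant length of the decimals on their circle, which is 0 for an even spread and 1 for identical decimals. Over all arrays it was 0.155 for 1368778_at and 0.399 for 1374531_at of Slc6a6, and 0.249 for 1386934_at of Slc6a8, against a median of 0.465 over the 1933 probes at 10 or above. The share of these probes with a lower resultant length was 7.92% for 1368778_at, 39.8% for 1374531_at and 18.3% for 1386934_at. Taken within groups the resultant lengths were 0.352, 0.555 and 0.385 in the same order, against a median of 0.569, so the wide spread of 1368778_at and 1386934_at was also a spread between replicate arrays. A resultant length runs higher over fewer arrays, and the value of 1374531_at includes 0.869 from only 2 HAL arrays. Below 10, 1367810_at had 0.499, against a median of 0.469 over 26639 probes. The decimals do not tell whether arrays spread in this way differed by parts of a unit or by more.

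**Figure D2:**
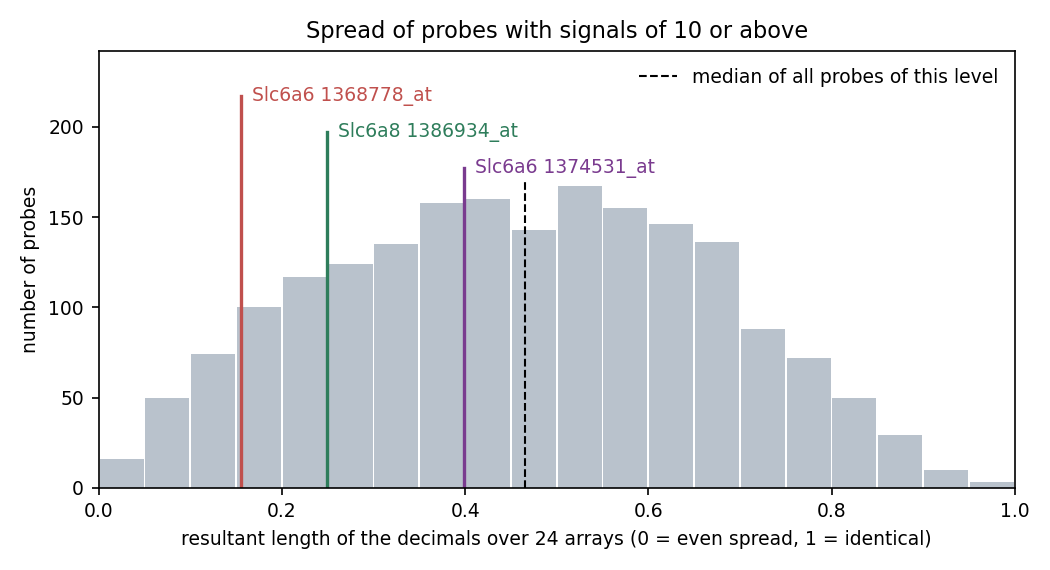
Number of probes (vertical axis) by resultant length of the decimals over 24 arrays (horizontal axis, no unit) for the 1933 probes at 10 or above, with the 3 Slc6a6 and Slc6a8 probes of that level as coloured lines and the median of 0.465 dashed. All 3 lines, at 0.155, 0.249 and 0.399, lie left of the median.

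The probes of 1 gene were set against each other over arrays. For the Slc6a8 pair, the difference of the decimals had a resultant length of 0.128 over the 18 arrays read in both, and for the Slc6a6 pair 0.288 over 10 arrays. Over 87 pairs of probes of 1 gene at 10 or above with at least 12 arrays read in both, the median was 0.397 and the quartiles 0.242 and 0.568. The Slc6a6 pair lay within these quartiles, on fewer arrays. Over few arrays a resultant length runs higher even for decimals that do not agree, so this place does not show that the Slc6a6 probes agree. The Slc6a8 pair, which includes a probe below 10, lay under them. Values are given for each probe and not for the gene.

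None of the 4 probes could be tested in the limma fit of probes at 10 or above. That fit took probes whose arrays leave a gap of at least 0.25 in the circle of decimals and that were read in at least 4 arrays of each group. The gap was 0.18 for 1368778_at and 0.22 for 1386934_at, 1374531_at had too few HAL readings, and 1367810_at lay below 10. Of the 1095 probes tested, 25 passed an adjusted p of 0.05 in HEP minus Sham (2.28%), 32 in HAL minus Sham (2.92%) and 0 in HEP minus HAL (0.0%) by limma with Benjamini-Hochberg adjustment. At an unadjusted p under 0.05 the last comparison had 96. HAL calls were 11 higher and 21 lower, and 24 higher and 16 lower with each array centred on its median.

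Each probe was therefore compared by the difference of its mean readings with a two-sided exact permutation test over arrays, and 0 of the 12 comparisons reached an unadjusted p of 0.05. Over 290 further tests of these comparisons under other settings, 10 did. For 1368778_at of Slc6a6 the mean reading was 0.56 ± 0.23 in HEP (SD, n = 7), 0.53 ± 0.33 in HAL (SD, n = 5) and 0.58 ± 0.29 in Sham (SD, n = 5). HEP minus Sham was -0.015 (exact permutation p = 0.909), HAL minus Sham -0.045 (p = 0.841) and HEP minus HAL 0.031 (p = 0.851). These differences were a small part of the SD within each group. Decimals spread over most of the unit give means near its middle whatever the signals, so this does not show that the groups are alike.

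For 1374531_at of Slc6a6 the mean reading was 0.61 ± 0.23 in HEP (SD, n = 6), 0.26 ± 0.12 in HAL (SD, n = 2) and 0.42 ± 0.13 in Sham (SD, n = 5). HEP minus Sham was 0.19 (exact permutation p = 0.139). HAL minus Sham was -0.16 (exact permutation p = 0.143, where 0.0476 is the smallest p that 2 against 5 arrays allow) and HEP minus HAL 0.35 (p = 0.179), both resting on 2 HAL arrays. With the short cells read, HEP minus HAL was 0.10 by the closer reading, 0.0039 with lost leading zeros and 0.088 with lost trailing zeros, and HEP minus Sham was 0.0088 by the closer reading. The closer reading takes for each short cell the value nearest the circular mean of the probe's complete cells over all groups. It thus tends to draw the groups together. With short cells read as lost leading zeros, a choice made after the data were seen, HAL minus Sham became -0.19 with an exact permutation p of 0.0424, and HEP minus Sham turned to -0.19 (p = 0.155). That reading sets every short cell at the low end of the unit, so it also reflects the 6 short cells in HAL against 3 in Sham. With HEP array 4 left out, HEP minus Sham was 0.25 (exact permutation p = 0.0476). Neither of these p-values was adjusted, and the direction of the HEP difference turned with the reading of the short cells.

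For 1386934_at of Slc6a8 the mean reading was 0.57 ± 0.20 in HEP (SD, n = 7), 0.81 ± 0.32 in HAL (SD, n = 5) and 0.61 ± 0.21 in Sham (SD, n = 8). HEP minus Sham was -0.032 (exact permutation p = 0.762). HAL minus Sham was 0.21 (exact permutation p = 0.179) and HEP minus HAL -0.24 (p = 0.134). The HAL mean lay above the Sham mean by about the SD within Sham, and the difference did not pass. With the circle opened opposite the circular mean, HAL minus Sham was 0.0054 (exact permutation p = 0.974) and HEP minus HAL -0.037 (p = 0.824), so both differences rested on where the circle was opened. They also depended on single choices in the other direction: with HAL array 8 left out, HAL minus Sham was 0.32 (exact permutation p = 0.0404) and HEP minus HAL -0.35 (p = 0.0303), and with short cells read as lost leading zeros HAL minus Sham was 0.30 (p = 0.0301). The last reading sets the 3 short HAL cells at the low end of the unit, while Sham had 0 short cells.

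For 1367810_at of Slc6a8 the mean reading was 0.22 ± 0.22 in HEP (SD, n = 6), 0.21 ± 0.17 in HAL (SD, n = 7) and 0.17 ± 0.21 in Sham (SD, n = 8). HEP minus Sham was 0.049 (exact permutation p = 0.680), HAL minus Sham 0.041 (p = 0.690) and HEP minus HAL 0.0080 (p = 0.949). In HAL minus Sham the first Slc6a8 probe had 0.21 where this one had 0.041.

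An alternative limma fit with gaps of at least 0.15 took in 2 of the 4 probes and gives intervals for them. In that fit 13 of 1758 probes passed in HEP minus Sham (0.739%), 25 in HAL minus Sham (1.42%) and 1 in HEP minus HAL (0.0569%), and neither carrier was among them. For 1368778_at of Slc6a6 the 95% interval ran from -0.31 to 0.28 in HEP minus Sham (adjusted p = 0.979, limma), from -0.37 to 0.28 in HAL minus Sham and from -0.27 to 0.33 in HEP minus HAL. For 1386934_at of Slc6a8 it ran from -0.26 to 0.20 in HEP minus Sham (adjusted p = 0.946), from -0.048 to 0.46 in HAL minus Sham (adjusted p = 0.414) and from -0.50 to 0.023 in HEP minus HAL (adjusted p = 0.629). The fit of all 18711 readable probes held 1367810_at of Slc6a8, with intervals from -0.17 to 0.27 in HEP minus Sham, -0.17 to 0.25 in HAL minus Sham and -0.22 to 0.23 in HEP minus HAL. In that fit 0.395%, 0.802% and 0.0% of probes passed in the same order. These intervals hold only where the true difference is under 0.5 log2 units and no array was set on the wrong side of the opening of the circle. For 1368778_at and 1386934_at the gap at that opening was 0.18 and 0.22, below the 0.25 asked of the first fit. With the circle opened opposite the circular mean, HAL minus Sham of 1386934_at was 0.0054. Within these limits the intervals do not show that the groups are alike.

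A test that needs no opening of the circle compared the mean directions of the decimals between groups for the 3 probes at 10 or above. In HAL minus Sham, 1386934_at of Slc6a8 had an angle of -0.50 log2 units with an exact permutation p of 0.00311 before adjustment and 0.188 after adjustment over 1933 probes. An angle of 0.50 is the opposite side of the circle, so it has no sign. The resultant length was 0.27 over the 5 HAL arrays read and 0.42 over the 8 Sham arrays, so the HAL mean direction was poorly defined. This p was found only with the 3 short HAL cells left out: the angle was 0.48 (exact permutation p = 0.175) with lost leading zeros and 0.13 (p = 0.750) with lost trailing zeros. In the same comparison 15% of the 1933 probes had an unadjusted p under 0.05 by this test, and 0 passed after adjustment. The distance between the mean vectors, which also weighs how tight each group is, gave an exact permutation p of 0.239 for the same probe and comparison, and 0.0256 with lost leading zeros. Over complete cells, neither Slc6a6 probe had an unadjusted p under 0.05 by angle in any comparison, and neither did 1386934_at of Slc6a8 in HEP minus Sham (p = 0.907 by exact permutation, against 12.0% of probes) or in HEP minus HAL (p = 0.0720, against 8.17%). With lost leading zeros, HEP minus HAL had an angle of 0.49 for 1368778_at of Slc6a6 (exact permutation p = 0.0270) and of 0.50 for 1386934_at of Slc6a8 (p = 0.0112), with p = 0.594 and 0.506 after adjustment. Each of these probes had 3 short HAL cells against 1 in HEP, which that reading sets at the low end of the unit.

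Over arrays, the readings of Slc6a8 were compared with those of 710 other genes at 10 or above that shared at least 18 read arrays with one of its probes. The highest Pearson correlations were 0.70 with Uso1 over 19 arrays, 0.68 with Dtd1 over 18, 0.66 with Scd2 over 18, 0.65 with Prss23 over 18 and 0.63 with Sh3bp5 over 20. Uso1, Prss23 and Sh3bp5 were nearest to 1367810_at, Dtd1 and Scd2 to 1386934_at. These are the highest of many correlations over few arrays that share surgery groups and normalisation, and are a description. They also rest on where the circle of decimals was opened for each probe. The gap there was under 0.25 for 1386934_at of Slc6a8 (0.22) and for the probes of Prss23 (0.16) and Sh3bp5 (0.15). Slc6a6 was read on too few arrays for such a comparison.

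The genes around the 2 carriers were read in the same way, with the same limit on size and sign where the integer part is unknown. In the fit of probes at 10 or above, the genes tested were 0 of taurine supply, 1 of the creatine system, 4 of osmolytes and tonicity, 1 of the anion channel, 0 of the other SLC6 carriers and 2 of the sodium gradient. None of these 8 passed an adjusted p of 0.05 in limma in any comparison, while 1 in HEP minus Sham, 5 in HAL minus Sham and 1 in HEP minus HAL had an unadjusted p under 0.05. Over the 1095 probes of that fit 164, 210 and 96 did, in the same order. Genes with no readable probe there were taken from the fit of all readable probes, and 1 of them passed. This second fit tested 6 genes of taurine supply, 4 of the creatine system, 8 of osmolytes and tonicity, 3 of the anion channel, 9 SLC6 carriers and 2 of the sodium gradient. Here and for the markers below, a gene tested in the first fit is given only by its probes in that fit. Nfat5, Lrrc8c, Abcb1a and Flt1, among others, had further probes that are not given.

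Taurine supply was read only below 10. Slc16a6, a carrier of the monocarboxylate family that can let taurine out of cells, had -0.13 in HEP minus Sham and -0.21 in HAL minus Sham, and neither passed (adjusted p = 0.766 and 0.392, limma). Slc36a1, a proton-coupled amino acid carrier that also accepts taurine, had 0.047 in HEP and 0.16 in HAL against Sham. Ado, a thiol dioxygenase that makes hypotaurine, had 0.054 and 0.051. The median difference of the 6 probes was -0.058 in HEP minus Sham, beside 0.0093 over all probes, and 0.012 in HAL minus Sham, beside 0.020 over all probes.

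In the creatine system, Gatm makes guanidinoacetate, the precursor of creatine, and Gamt methylates it. Gatm had a mean reading of 0.60 ± 0.21 in HEP (SD, n = 6), 0.71 ± 0.22 in HAL (SD, n = 7) and 0.39 ± 0.24 in Sham (SD, n = 7). Its difference was 0.21 in HEP (adjusted p = 0.367, limma) and 0.32 in HAL (adjusted p = 0.0892) against Sham, and neither passed. The other Gatm probe, near 10, was outside that fit and is not given here. Gamt had -0.37 in HEP (adjusted p = 0.214, limma) and -0.15 in HAL against Sham, so the readings of the 2 enzymes of synthesis had differences of opposite sign. Slc16a12, a creatine exporter, had 0.27 in HEP and 0.26 in HAL for the probe 1393516_at, and 0.10 and 0.0099 for 1390530_at.

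Among osmolyte and tonicity genes, Slc38a2, a sodium-coupled carrier of neutral amino acids that hypertonicity induces, had 0.14 in HEP and 0.39 in HAL against Sham (adjusted p = 0.604 and 0.0528, limma). Nfat5, the transcription factor that drives Slc6a6 and other osmolyte carriers under hypertonic stress, had -0.18 in HEP and -0.30 in HAL (adjusted p = 0.349 and 0.0617, limma). Slc12a2, the sodium-potassium-chloride cotransporter of volume regulation, had 0.071 in HEP and 0.22 in HAL. The HAL differences of Slc38a2 and Nfat5 were the closest to the threshold in this list and ran in opposite directions. The median over the 4 probes was 0.035 in HEP and 0.094 in HAL, beside -0.0077 and -0.034 over all probes of that fit.

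The volume-regulated anion channel, built of Lrrc8 subunits, lets taurine leave swollen cells. Lrrc8c had a mean reading of 0.36 ± 0.23 in HEP (SD, n = 7), 0.39 ± 0.18 in HAL (SD, n = 7) and 0.66 ± 0.084 in Sham (SD, n = 8). Its difference was -0.30 in HEP and -0.27 in HAL, which did not pass (adjusted p = 0.0537 and 0.0718, limma). Lrrc8b, whose probe lay near 10 and was read as 9 or 10 plus its decimals, had 0.53 in HEP and 0.34 in HAL (adjusted p = 0.0873 and 0.276, limma). The obligatory subunit Lrrc8a had 0.10 in HEP and 0.16 in HAL for 1 of its 3 probes, which lay below 10. The 3 subunits thus had differences of both signs, and all missed the threshold.

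Among the other SLC6 carriers, 1 of 9 genes tested passed, in HEP minus Sham, where 0.395% of the 18711 probes of that fit did. This was Slc6a17, a vesicular carrier of neutral amino acids in neurons. Of its 5 probes 1 lay at 10 or above, and that one could not be tested. The probe 1370654_at, which lay below 10, had a mean reading of 0.33 ± 0.093 in HEP (SD, n = 6), 0.27 ± 0.080 in HAL (SD, n = 7) and -0.018 ± 0.18 in Sham (SD, n = 6). Its difference from Sham was 0.35 in HEP (adjusted p = 0.0436, limma) and 0.29 in HAL (adjusted p = 0.0656). The HEP call was lost in 11 of 16 fits that left out 1 HEP or Sham array, and with only the compared groups in the fit (adjusted p = 0.114). HEP minus HAL was 0.064 (adjusted p = 0.900, limma), so the models were not shown to differ. The probes 1380355_s_at and 1381704_s_at of the same gene had 0.26 and 0.16 in HEP, with adjusted p = 0.144 and 0.624. Of 10 neuron markers 9 were tested in this fit and 0 passed, with a median difference of -0.042 in HEP minus Sham, while of 2 oligodendrocyte markers with 4 probes 1 probe of Mobp, 1368263_a_at, passed. This Mobp probe had 0.37 in HEP minus Sham (adjusted p = 0.0243, limma), a call lost in 5 of 16 fits without 1 array. The other Mobp probes had -0.092 and 0.047, Cnp had -0.67 (adjusted p = 0.234), and the median of the 4 probes was -0.022. The part of other cell types in the Slc6a17 difference was not tested.

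The other named SLC6 carriers had smaller differences, none of which passed. Slc6a9, a glycine carrier, had -0.095, 0.080 and 0.18 in HEP over its 3 probes, and Slc6a3, the dopamine carrier, 0.13 and -0.043 over 2. Slc6a7, the proline carrier, had 0.038 in HEP and 0.16 in HAL. Slc6a3 and Slc6a9 had probes of both signs.

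The sodium gradient that drives both carriers is kept by the sodium-potassium ATPase. Its regulator Fxyd5 had 0.19 in HEP and 0.18 in HAL against Sham, and its subunit Atp1b1, read near 10, 0.33 and 0.31 with intervals from -0.16 to 0.83 and from -0.19 to 0.80. Atp1b2 had 0.036 and 0.072. None of the 3 passed.

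**Figure D3:**
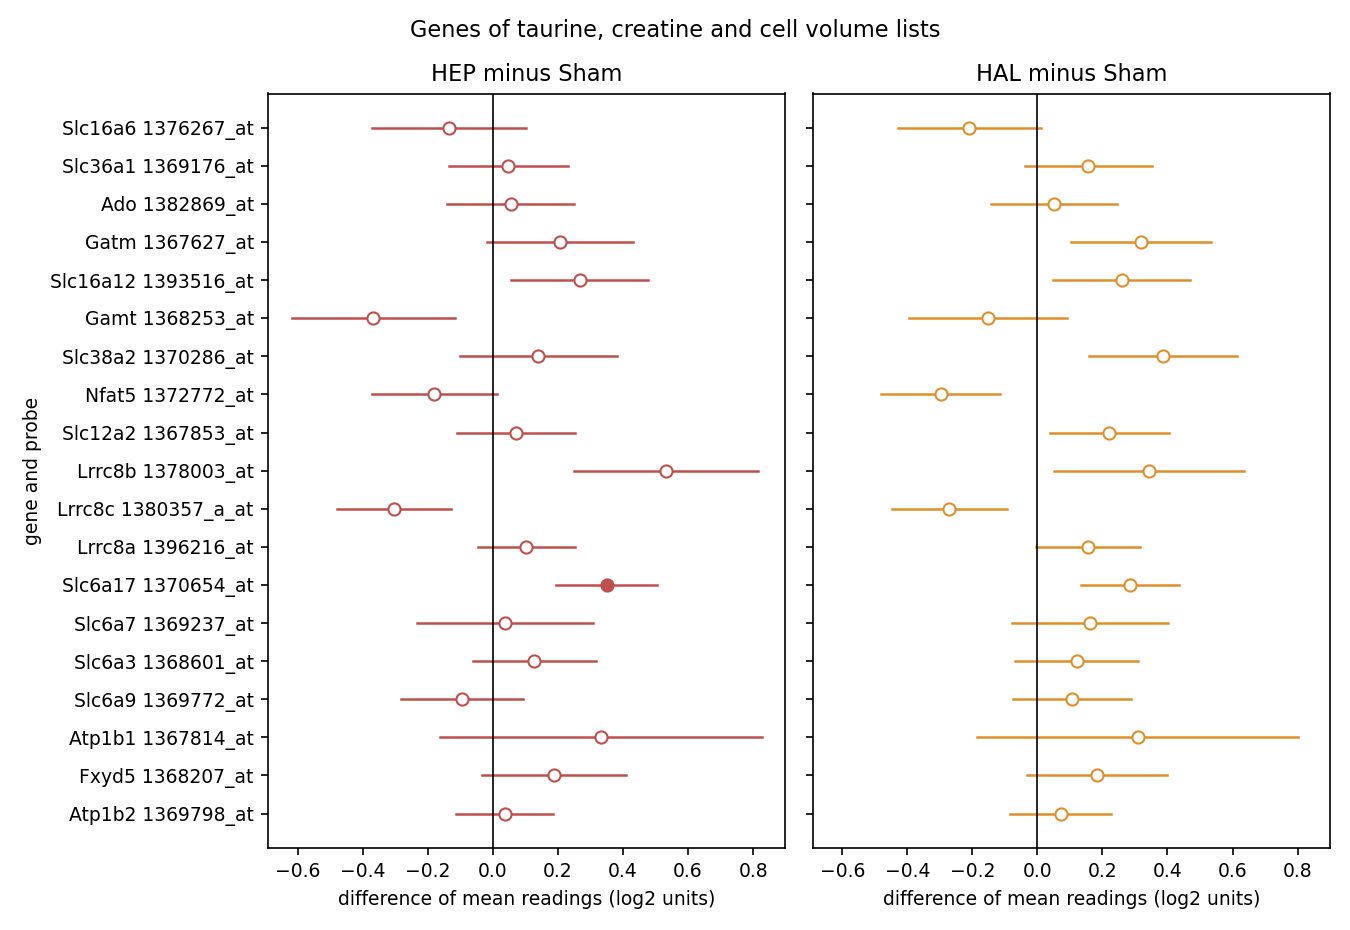
Difference of mean readings (horizontal axis, log2 units) in HEP minus Sham (left) and HAL minus Sham (right) for the genes named from the 6 lists (vertical axis, 1 probe a gene), with 95% intervals from limma as lines. The filled point, Slc6a17 in HEP at 0.35, passed an adjusted p of 0.05, and open points did not. Of several tested probes of a gene, the probe that passed is drawn, or else that with the largest absolute HAL minus Sham difference.

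Among markers of the vessel wall, only Slc2a1 and Slco1a4 of the endothelial list had a probe that passed. Of 7 endothelial genes tested at 10 or above, Slc2a1, the glucose carrier GLUT1, had 0.32 in HEP minus Sham (adjusted p = 0.0334, limma). In that comparison 2.28% of probes passed, and the Slc2a1 call was lost in 10 of 16 fits without 1 array. For Slco1a4, an organic anion carrier of brain endothelium, the probe 1387093_at had -0.35 in HAL minus Sham (adjusted p = 0.0141, limma). In that comparison 2.92% of probes passed, and the Slco1a4 call was kept in each of 16 such fits. The Slco1a4 probe 1387094_at had -0.29 and did not pass (adjusted p = 0.165). The other genes of these 7 did not pass. Cldn5 had 0.044 in HEP and -0.0051 in HAL, Flt1 0.014 and 0.00046, and Kdr -0.010 and -0.12. Tek had -0.19 and -0.22, and Abcb1a -0.050 and -0.30. The median over the 8 endothelial probes was -0.030 in HEP and -0.17 in HAL, beside -0.0077 and -0.034 over all probes. Of 2 pericyte genes and 1 smooth muscle gene in that fit, and 5 pericyte genes in the fit of all readable probes, 0 passed against Sham. Whether the amount of endothelial RNA moved the readings of Slc6a6 and Slc6a8 was not tested.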

How the data were processed

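RNA of cortical microvessels from 24 samples was measured on 1 array each. Per the submitters' processing notes the authors used RMA (version not given), so the values are background-corrected, normalised signals on the log2 scale. Per the labels' protocols the DNA was labelled with a kit for whole-transcript arrays, whereas the probe identifiers are those of a 3' expression array, a mismatch for which no source was found. As provided, the deposited table keeps of each log2 value only what follows the decimal point, as whole numbers of up to 9 digits without leading or trailing zeros, and the integer parts are not used here. Per the file headers each column is 1 sample.

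A probe with no cell of 9 digits was taken to lie at 10 or above, one with 1 to 14 near 10, and others below. Complete cells were read as decimals, the circle of decimals was opened at the widest gap between the 24 arrays without regard to group, and probes were tested in limma 3.58.1 (R 4.3.3, group means over all arrays, eBayes, Benjamini-Hochberg adjustment) where the gap was at least 0.25 and each group had at least 4 readings. Probes near 10 were read as 9 or 10 plus their decimals. Single probes were compared by exact permutation tests (scipy 1.17.1, numpy 2.4.6, pandas 2.3.3, Python 3.11.15). The reading was tested on simulated data, where changes beyond 0.5 log2 units were misread in size and direction.

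Of the probes, 20832 had 1 gene symbol, 436 several and 9831 none, and 20764 of the first were found by Entrez identifier among the genes of the rat assembly GRCr8, with 0 symbols changed. The members and lists were chosen with earlier results of these data known. From each list the text names the genes that passed and otherwise up to 3 with the largest difference in HAL minus Sham, and for likeness the 5 genes of highest correlation. Samples with the same number in different groups were not paired: the median correlation of their deviations was 0.068 for HEP and Sham, 0.011 for HAL and Sham and -0.077 for HEP and HAL. No columns were identical. Median deviations of arrays from the probe means ran from -0.0995 to 0.0588. Alternatives are given in the closing section.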

Additional observations from a re-analysis of the deposited data

How the results depend on the processing

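The numbers of probes that passed depended on the processing, and no probe of Slc6a6 or Slc6a8 was in the fit of probes at 10 or above with gaps of at least 0.25. In HEP minus Sham, 25 probes became 13 with gaps of at least 0.15, 15 with gaps of at least 0.35, 39 with arrays centred, 89 with array weights and 74 over all readable probes. In HAL minus Sham, 32 became 64 with array weights and 150 over all readable probes. In HEP minus HAL, 0 became 1 with short cells read by the closer reading, 2 with the circle opened opposite the circular mean, 1 with gaps of at least 0.15, 1 with arrays centred and 8 with array weights. With the replicate block the counts were 22 in HEP minus Sham, 37 in HAL minus Sham and 5 in HEP minus HAL, and each array correlated best with its own number in at most 2 of 8 cases, so the numbers were not taken to pair samples. Leaving out 1 array of the compared groups gave 5 (without HEP array 4) to 65 (without HEP array 8) in HEP minus Sham, 5 (without HAL array 6) to 36 in HAL minus Sham and 0 to 6 (without HAL array 7) in HEP minus HAL, and leaving out HEP array 8, which also sets the shared spread, gave 47 in HAL minus Sham.

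Of the differences of the carriers, those that changed sign or passed an unadjusted p of 0.05 were the following. For 1368778_at of Slc6a6, HEP minus Sham was 0.069 with short cells read by the closer reading and with lost trailing zeros, 0.12 with lost leading zeros and 0.051 with the replicate block. HAL minus Sham was 0.049 by the closer reading and with lost trailing zeros. HEP minus HAL was 0.26 with lost leading zeros (exact permutation p = 0.0463). For 1374531_at of Slc6a6, HEP minus Sham was -0.19 with lost leading and -0.0038 with lost trailing zeros, and HAL minus Sham was -0.19 with lost leading zeros. Without a change of sign, its HEP minus HAL of 0.35 became 0.10 by the closer reading and 0.0039 with lost leading zeros. For 1386934_at of Slc6a8, HEP minus Sham was 0.0058 by the closer reading and with lost trailing zeros and 0.032 with lost leading zeros. HAL minus Sham was 0.30 with lost leading zeros, and with the circle opened opposite the circular mean it was 0.0054 and HEP minus HAL -0.037. For 1367810_at of Slc6a8, HEP minus HAL was -0.059 by the closer reading, -0.011 with lost leading zeros, -0.052 with lost trailing zeros and -0.013 with arrays centred. Differences of circular mean directions are angles, and one close to 0.50 has no sign. They were 0.44 for 1368778_at in HAL minus Sham, and -0.50 in HAL minus Sham and 0.48 in HEP minus HAL for 1386934_at. With lost leading zeros they were 0.14 in HAL minus Sham and 0.49 in HEP minus HAL for 1368778_at, -0.38 in HEP minus Sham and -0.18 in HEP minus HAL for 1374531_at, 0.50 in HEP minus HAL for 1386934_at, and -0.038 in HEP minus Sham, -0.0078 in HAL minus Sham and -0.030 in HEP minus HAL for 1367810_at. With lost trailing zeros they were 0.050 for 1368778_at and 0.035 for 1386934_at in HEP minus Sham. The distance of 1386934_at in HAL minus Sham was 0.953 with lost leading zeros. The replicate block changed no other direction and no call of the carriers. The reading with lost leading zeros sets every short cell at the low end of the unit. Beyond that, why these values moved was not tested.

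With 1 array left out, 1368778_at ranged from -0.13 to 0.069 in HEP minus Sham, -0.16 to 0.041 in HAL minus Sham and -0.056 to 0.12 in HEP minus HAL. The range of 1374531_at was 0.14 to 0.25, -0.24 to -0.079 and 0.27 to 0.43 in the same order, where the ends of the last 2 ranges left 1 HAL array and have no test, and that of 1386934_at -0.076 to 0.012, 0.13 to 0.32 and -0.35 to -0.16. For 1367810_at it was -0.0088 to 0.12, -0.017 to 0.084 and -0.040 to 0.082. Slc6a17 in HEP minus Sham ranged from 0.31 to 0.42, with an adjusted p of 0.0054 to 0.108 in limma, and had an adjusted p of 0.176 with the replicate block. Array weights, gaps of at least 0.35 and a fit of only the compared groups gave no further value for the carriers, since no carrier probe was in those fits or the permutation test already uses only the compared arrays. The lost integer parts and the short cells limit what can be read, and signal over background is not known.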

Other observations

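Same-numbered HEP and Sham arrays had close decimals for 1386934_at of Slc6a8 in part. Arrays 1 to 5 differed by 0.11, 0.029, 0.0077, 0.0076 and 0.072 log2 units, while arrays 6 and 8 differed by 0.24 and 0.30 and HEP array 7 had a short cell. Same-numbered HAL and Sham arrays of this probe differed by 0.37, 0.38, 0.22, 0.054 and 0.31 for numbers 2, 3, 5, 7 and 8. Over all probes tested, same-numbered HEP and Sham arrays were hardly correlated, with a median of 0.068 over 8 pairs and 3 of 8 above 0.1. The closeness was noticed after the values were seen and was not tested.

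Of 11 group sets of readings of the carriers with at least 4 arrays, 0 held an array far from the others by Dixon's criterion. The readings keep only the decimals, so an array whose signal was off by whole units could not be found in this way. The count therefore does not tell whether any array lay far from the others in signal.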
